A study of Danio rerio with 8 samples.

Results

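The genes kdrl, cdh5 and fli1, which mark the cells lining blood vessels, were followed through melanomas of zebrafish by RNA sequencing. They were picked by Ensembl gene ID, as ENSDARG00000105215 (kdrl), ENSDARG00000075549 (cdh5) and ENSDARG00000054632 (fli1), and make up 3 of the 22416 genes in the tables. All 3 passed the filter on low values that left 16853 genes for testing. The tumours came from 5 Tg(mitfa:dgat1a) samples and 3 Tg(mitfa:egfp) samples. Both groups shared the strain tp53m214K/m214k; mitfa-/-; nras G12D and an age of 10 to 12 weeks at harvest. dgat1a encodes an enzyme of triacylglycerol synthesis, and egfp is a fluorescent protein that served as the control. The miniCoopR system ties the gene of interest to a mitfa rescue gene, so in either group the transgene is placed in melanocytes, and vessels come from the host. Whether each tumour came from a different fish is not stated, so p-values measure the spread between these samples only.

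Tumours take up host vessels and make new ones, and the endothelial cells of those vessels add their RNA to that of the dissected tumour. kdrl encodes a VEGF receptor of fish that is closely related to mammalian VEGFR2 and receives the main signal for vessel growth. cdh5 encodes VE-cadherin, which holds endothelial cells together at their junctions. fli1 encodes a transcription factor of the ETS family that acts early in the making of endothelial and blood cells, and in zebrafish it is also expressed in connective tissue cells of the pharyngeal arches that derive from the neural crest. In RNA from a whole tumour, fewer endothelial cells and less RNA per endothelial cell cannot be told apart. The mammalian-style symbol FLI1 stands beside the fli1 ID in the gene name table, and the other 2 IDs are listed there under kdrl and cdh5.

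Libraries held 20936089 to 26865735 reads assigned to genes. Levels are given in fpm, the authors' per-million read level scaled between samples. The marker check on tissue used sox10, a neural crest and melanocyte regulator. It lay at 776.3 to 1095 fpm in dgat1a tumours and at 667.4 to 1116 fpm in egfp tumours. The other named melanocyte and crest genes are given further below. The transgene was checked through the IDs that carry the symbol DGAT1, of which ENSDARG00000103503 lay at 2223 to 4160 fpm in dgat1a tumours and at 26.5 to 75.1 fpm in egfp tumours. The other DGAT1 ID, ENSDARG00000054914, lay at 3.03 to 5.96 fpm in dgat1a tumours and at 3.66 to 5.52 fpm in egfp tumours. Of the IDs with the symbol MITF, ENSDARG00000003732 lay at 684.9 to 1565 fpm in dgat1a tumours and at 1609 to 2851 fpm in egfp tumours. This difference did not pass the limma test described below (adjusted p = 0.216). ENSDARG00000037833 lay at 1.72 to 5.17 fpm in dgat1a tumours and at 2.03 to 6.69 fpm in egfp tumours. The profile of egfp replicate 1 stood apart, with a mean correlation of 0.854 to the other tumours where the rest had 0.897 to 0.918. Values without that tumour are therefore given for the 3 genes and for the lists of other genes, though not for every result.

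Neither kdrl, cdh5 nor fli1 passed the test between dgat1a and egfp tumours, and in each gene the levels of the groups overlapped. By the difference of mean log2(fpm + 0.5), kdrl in dgat1a tumours lay at 0.739 times its egfp level, cdh5 at 0.943 times and fli1 at 1.25 times. Each had an interval that included no change. The groups were compared with limma on log2(fpm + 0.5) over all tested genes, with Benjamini-Hochberg adjustment and a threshold of 0.05. Of the 3 genes, 0 had an adjusted p under 0.05 in limma, against 0.0534% of all tested genes. At an unadjusted p under 0.05 the count was also 0, where 15.0% of all tested genes fell. Groups that did not overlap were seen in 0 of the 3, against 10.4% of tested genes.

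kdrl, the receptor, measured 57.4, 24.7, 46.8, 24.5 and 27.1 fpm in dgat1a replicates 1 to 5 and 29.5, 65.1 and 50.5 fpm in egfp replicates 1 to 3. Its levels formed a high set and a low set with no tumour between 29.5 and 46.8 fpm, and each set held tumours of both groups. dgat1a replicates 1 and 3 lay high with egfp replicates 2 and 3, while dgat1a replicates 2, 4 and 5 lay low with egfp replicate 1. Means were 36.1 ± 15.1 fpm in dgat1a tumours (SD, n = 5) and 48.3 ± 17.9 fpm in egfp tumours (SD, n = 3). limma gave a log2 fold change of -0.44 (standard error 0.37, 95% interval -1.27 to 0.39) and an adjusted p of 0.585. An exact permutation test over the 8 tumours, two-sided, gave p = 0.25, where the design allows no p below 0.0357. Leaving out egfp replicate 1 moved the log2 fold change to -0.75 and leaving out egfp replicate 2 moved it to -0.19, and neither value passed the test.

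cdh5, the junction cadherin, measured 27.03, 19.6, 19.8, 13.2 and 14.5 fpm in dgat1a replicates 1 to 5 and 14.9, 23.4 and 20.8 fpm in egfp replicates 1 to 3. The highest and the lowest tumour both carried dgat1a, so the egfp levels lay inside the dgat1a range. Means were 18.8 ± 5.46 fpm in dgat1a tumours (SD, n = 5) and 19.7 ± 4.37 fpm in egfp tumours (SD, n = 3). On the log2 scale the difference was -0.09, its standard error 0.28 and its 95% interval -0.72 to 0.55 (limma adjusted p = 0.906; exact permutation p = 0.75). Pooled over both groups, cdh5 had the lowest residual SD of the 3 genes, 0.378 log2 units. It was 0.571 for kdrl, 0.431 for fli1 and 0.448 for the median tested gene. Within dgat1a tumours alone fli1 varied least, with an SD of 0.269 log2 units, against 0.400 for cdh5 and 0.568 for kdrl. In egfp tumours the SD was 0.642 for fli1, 0.330 for cdh5 and 0.577 for kdrl. The sign of the cdh5 difference turned without dgat1a replicate 4, to 0.03, and without egfp replicate 2, to 0.05. Without egfp replicate 1 the difference was -0.27 (limma adjusted p = 0.824). In RefSeq's annotation of the GRCz12tu assembly the span of a long non-coding RNA gene overlaps that of cdh5. Overlap of exons was not checked, nor whether the annotation used for counting holds that gene. The strand setting of the counting is not given in the sources used here. Whether reads of that gene were counted for cdh5 therefore cannot be told.

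fli1, the transcription factor, measured 14.2, 14.2, 20.8, 12.5 and 15.04 fpm in dgat1a replicates 1 to 5 and 7.003, 16.6 and 14.7 fpm in egfp replicates 1 to 3. egfp replicate 1 was the lowest of all 8 tumours, and the other 2 egfp tumours lay inside the dgat1a range. Means were 15.3 ± 3.20 fpm in dgat1a tumours (SD, n = 5) and 12.8 ± 5.07 fpm in egfp tumours (SD, n = 3). On the log2 scale the difference was 0.32, its standard error 0.31 and its 95% interval -0.38 to 1.02 (limma adjusted p = 0.639; exact permutation p = 0.5). Without egfp replicate 1 it was -0.05 (limma adjusted p = 0.974), so the sign of the difference rested on that tumour. The 159 reads of fli1 in egfp replicate 1 were the fewest of any of the 3 genes in any library, while kdrl reached 1476 reads and cdh5 at most 615.

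**Figure D1:**
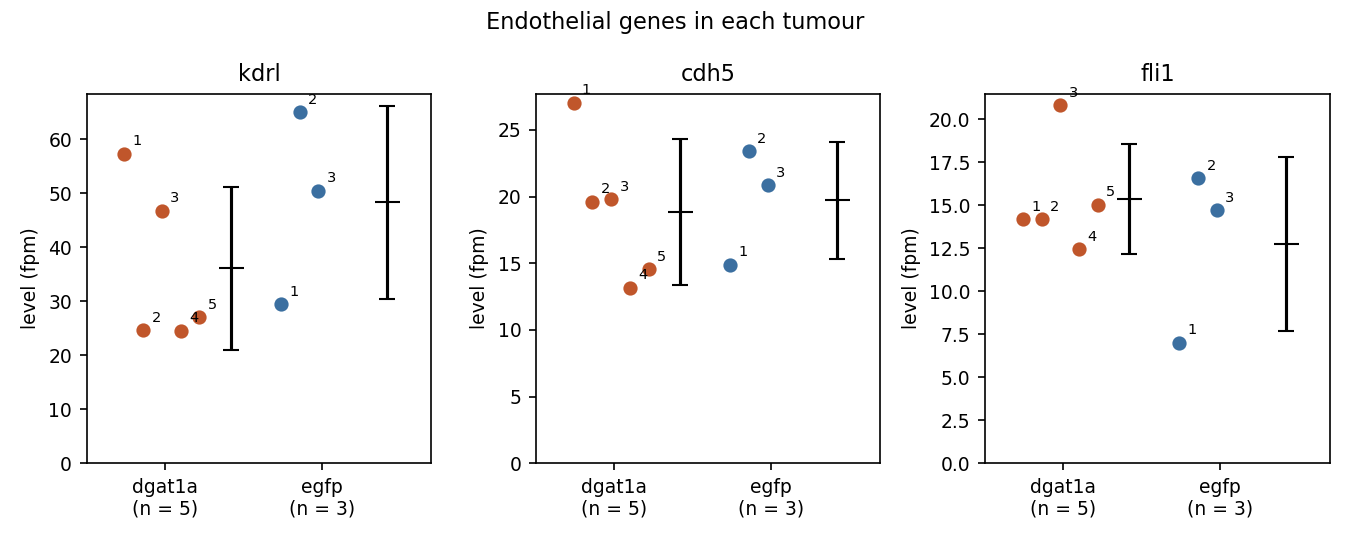
Levels of kdrl, cdh5 and fli1 in fpm (vertical axes, from 0) in each dgat1a tumour (left, n = 5) and egfp tumour (right, n = 3). Each point is a tumour with its replicate number, and the bar beside each group is the mean with its SD; the groups overlap in all 3 genes, and fli1 in egfp replicate 1 lies lowest at 7.003 fpm.

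**Figure D2:**
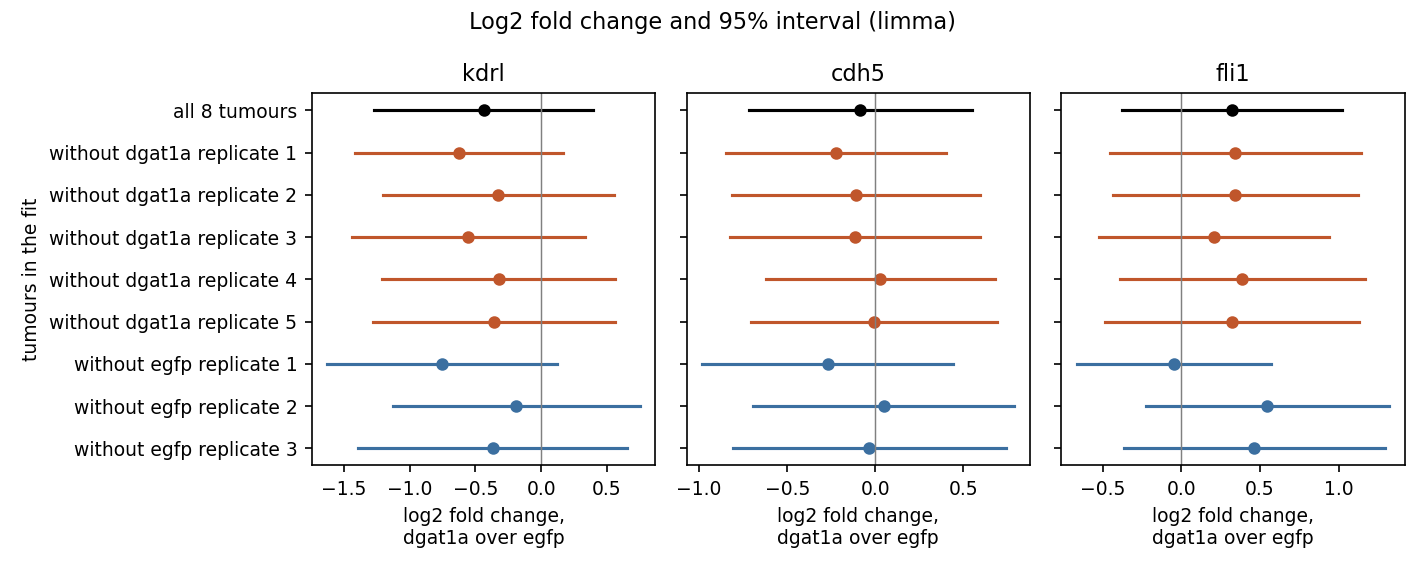
Log2 fold change of dgat1a over egfp tumours on the log2(fpm + 0.5) scale, with 95% intervals from limma, for all 8 tumours (black) and with each tumour left out in turn (orange for a dgat1a tumour, blue for an egfp tumour). All intervals shown include 0, and for fli1 the value without egfp replicate 1 is -0.05.

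The authors' deposited table gave the same signs as limma on all 8 tumours. For kdrl the authors' deposited table held a log2 fold change of -0.38 ± 0.38 (standard error, adjusted p = 0.649), for cdh5 one of -0.06 ± 0.31 (adjusted p = 0.946) and for fli1 one of 0.25 ± 0.33 (adjusted p = 0.750). None of the 3 was among the 823 genes with an adjusted p under 0.05 in the authors' deposited table.

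How the 3 genes stood to each other inside a tumour was examined next. Apart from the added 0.5, a log2 difference inside a tumour does not change with the scaling between libraries. The difference of 2 genes was taken on the log2(fpm + 0.5) scale and is used only to compare tumours, because levels of different genes were not set per length. kdrl minus fli1 was 1.98 in dgat1a replicate 1 and 0.78 to 1.15 in the other 4 dgat1a tumours, against 1.75 to 1.998 in the egfp tumours. Here 4 of the 5 dgat1a tumours lay below every egfp tumour, and dgat1a replicate 1 lay among the egfp tumours. The mean was 1.14 ± 0.49 in dgat1a tumours (SD, n = 5) and 1.89 ± 0.13 in egfp tumours (SD, n = 3), a difference of -0.76 (exact permutation test, two-sided, p = 0.107). kdrl minus cdh5 averaged 0.87 ± 0.34 in dgat1a tumours (SD, n = 5) and 1.22 ± 0.25 in egfp tumours (SD, n = 3), with an exact permutation p of 0.143. cdh5 minus fli1 averaged 0.26 ± 0.42 in dgat1a tumours (SD, n = 5) and 0.67 ± 0.32 in egfp tumours (SD, n = 3), with an exact permutation p of 0.179. Adjusted over these 3 comparisons, each exact permutation p was 0.179, so no difference between the groups passed the test.

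**Figure D3:**
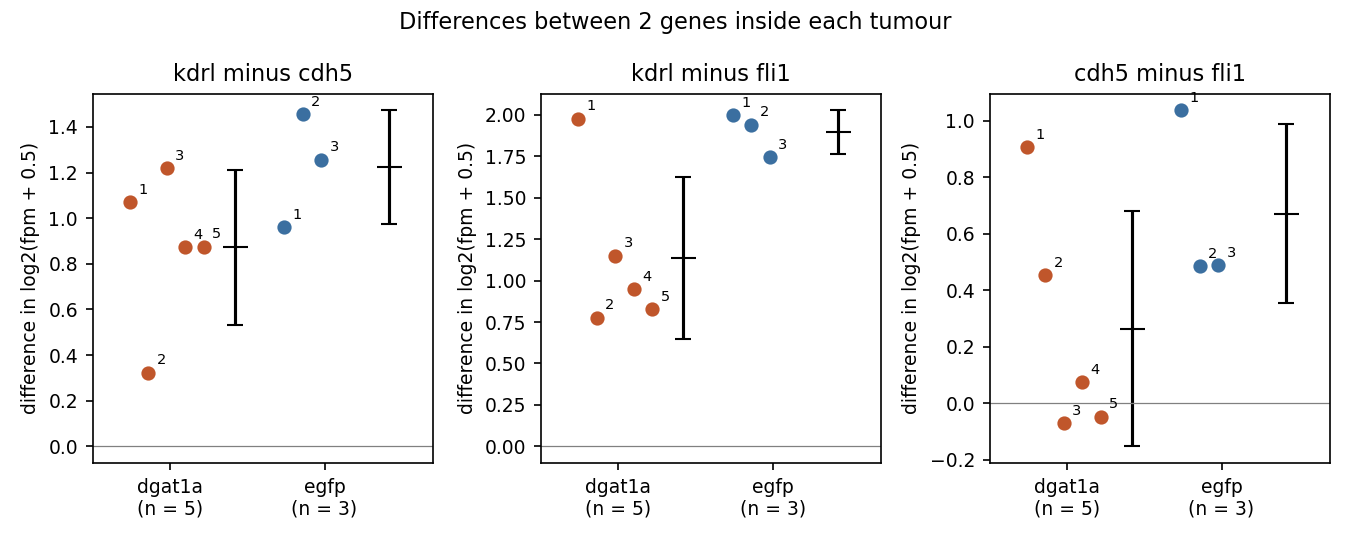
Difference between 2 genes inside each tumour on the log2(fpm + 0.5) scale (vertical axes), for dgat1a tumours (left, n = 5) and egfp tumours (right, n = 3), with replicate numbers and the mean and SD beside each group. In kdrl minus fli1, dgat1a replicates 2 to 5 lie at 0.78 to 1.15, below the egfp tumours at 1.75 to 1.998, and dgat1a replicate 1 lies at 1.98.

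kdrl and cdh5 followed each other across the 8 tumours more closely than either followed fli1, though the difference between these correlations was not tested. For kdrl and cdh5 Pearson's r was 0.833 (exact permutation p = 0.0166, 0.0499 adjusted over 3 pairs) and Spearman's rank correlation was 0.905 (exact permutation p = 0.00456, 0.0137 adjusted). Without the 2 tumours farthest from the median of kdrl, dgat1a replicate 1 and egfp replicate 2, r was 0.690 over 6 tumours and no longer passed the test (exact permutation p = 0.172), while Spearman's rank correlation was 0.829. The pooled r also spans the gap between the high and low sets of kdrl, and the relation within each set of 4 tumours was not tested. With any single tumour other than dgat1a replicate 2 left out, r was 0.790 to 0.836 and its adjusted exact permutation p was 0.0542 to 0.135, and without dgat1a replicate 2 r was 0.964 (adjusted exact permutation p = 0.00655). With the mean of each group taken away r was 0.860 for kdrl and cdh5, 0.700 for kdrl and fli1 and 0.552 for cdh5 and fli1. As a description, 99.8% of the other tested genes had a lower r with kdrl than cdh5 had, and 99.9% had a lower r with cdh5 than kdrl had.

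For kdrl and fli1 r was 0.443 and Spearman's rank correlation 0.524 (exact permutation p = 0.307 and 0.197), and 0.431 without the same 2 tumours. For cdh5 and fli1 r was 0.457 and Spearman's rank correlation 0.429 (exact permutation p = 0.260 and 0.299), and r was 0.589 without dgat1a replicates 1 and 4. Without egfp replicate 1 r was 0.473 for kdrl and fli1 and 0.311 for cdh5 and fli1 (exact permutation p = 0.305 and 0.515). Adjusted over 3 pairs, the exact permutation p of r over all 8 tumours was 0.307 for both pairs with fli1. Ranked among all other tested genes by r, fli1 stood at place 1682 for kdrl and at place 1374 for cdh5. As a description, 90.0% of the other tested genes had a lower r with kdrl than fli1 had, and 91.8% a lower r with cdh5. Of the r values with fli1, 78.5% were lower than that of kdrl and 79.5% lower than that of cdh5.

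**Figure D4:**
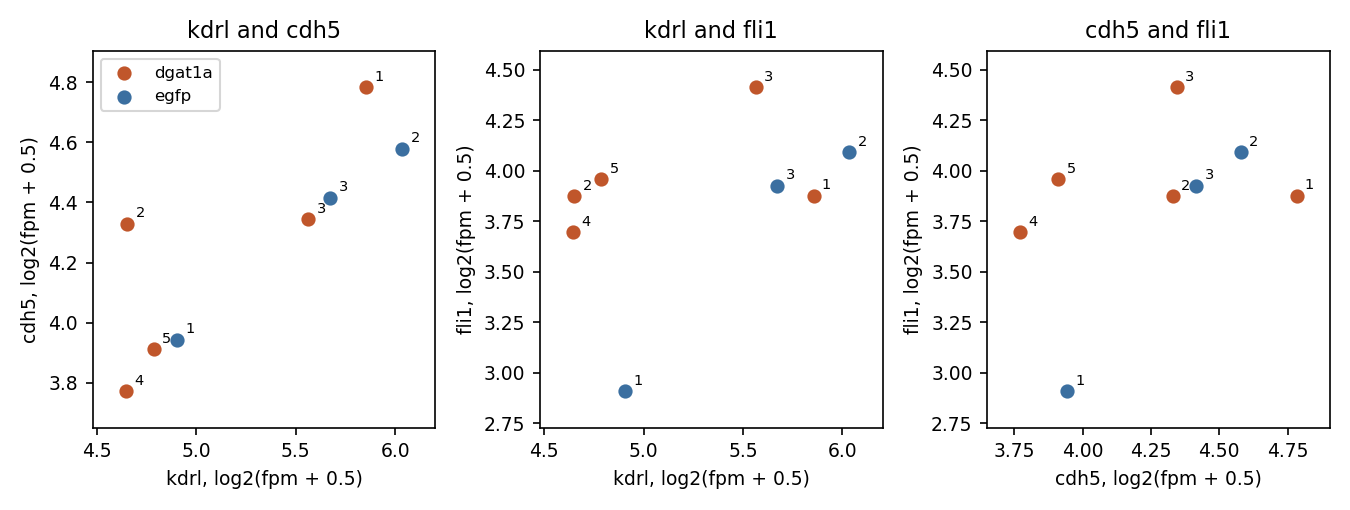
Levels of the 3 pairs of genes against each other in log2(fpm + 0.5), with 1 point per tumour (orange for dgat1a, blue for egfp) and its replicate number. kdrl and cdh5 lie along a rising line with r of 0.833, dgat1a replicate 2 farthest off it, and egfp replicate 1 lies below the other tumours in both panels that show fli1.

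The genes with the most similar pattern over the 8 tumours were taken as the 3 with the highest Pearson's r on log2(fpm + 0.5). For kdrl they were PER1, a clock gene (r = 0.962), GTF3C5, a subunit of a transcription factor of RNA polymerase III (0.917), and mmrn2a (0.917), whose human relative MMRN2 is a matrix protein of endothelial cells. For cdh5 they were mhc1zja, a class I histocompatibility gene (0.970), again PER1 (0.935) and zgc:92242 (0.894). PER1 ranged from 102.5 to 274.3 fpm in dgat1a tumours and from 110.2 to 277.3 fpm in egfp tumours. For fli1 they were col5a3a, a fibrillar collagen gene (0.986), RND3 (0.973), and ccdc120b (0.963). These values are the highest among all other tested genes over only 8 tumours and are a description only. Without egfp replicate 1 those of kdrl and cdh5 lay between 0.913 and 0.967, while the values of fli1 were 0.966 for col5a3a, 0.884 for RND3 and 0.841 for ccdc120b. Over all 8 tumours an r over 0.9 was found with 78 genes for fli1, 5 for kdrl and 2 for cdh5. These were not counted without egfp replicate 1, which was the lowest of the 8 tumours in 23.7% of all tested genes.

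Other genes of the vessel wall were read from a list of 25 endothelial genes, of which 19 were matched to an ID and measured and 18 passed the filter. By limma, 0 of the 18 rose and 0 fell at an adjusted p under 0.05. The edgeR quasi-likelihood test and DESeq2 also called 0. Of all tested genes limma called 0.0534%, edgeR 0.0178% and DESeq2 5.14%. In limma 1 of the 18, or 5.56%, had an unadjusted p under 0.05, against 15.0% of all tested genes. In dgat1a tumours 10 of the 18 were higher on average and 8 lower, and the median log2 fold change was 0.05, against 0.04 over all tested genes. The signs of 5 of the 18 turned without egfp replicate 1. Then 0 had an unadjusted p under 0.05, against 8.96% of all tested genes. The summed level of the 19 genes was 158.1 to 300.01 fpm in dgat1a tumours and 146.9 to 216.3 fpm in egfp tumours. The most abundant were plvapb and plvapa, which encode proteins of the diaphragms of capillary openings, and tie1 and tek, the receptors of the angiopoietin system. plvapb lay at 25.03 to 90.5 fpm in dgat1a tumours and at 32.9 to 44.03 fpm in egfp tumours, with a log2 fold change of 0.21 (limma adjusted p = 0.805). tie1 lay at 15.1 to 23.9 fpm in dgat1a tumours and at 12.8 to 21.7 fpm in egfp tumours. tek lay at 11.01 to 21.2 fpm in dgat1a tumours and at 10.8 to 34.4 fpm in egfp tumours, and its highest level was that of egfp replicate 1, in which fli1 was lowest. plvapa lay at 13.5 to 51.7 fpm in dgat1a tumours and at 15.8 to 29.7 fpm in egfp tumours.

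**Figure D5:**
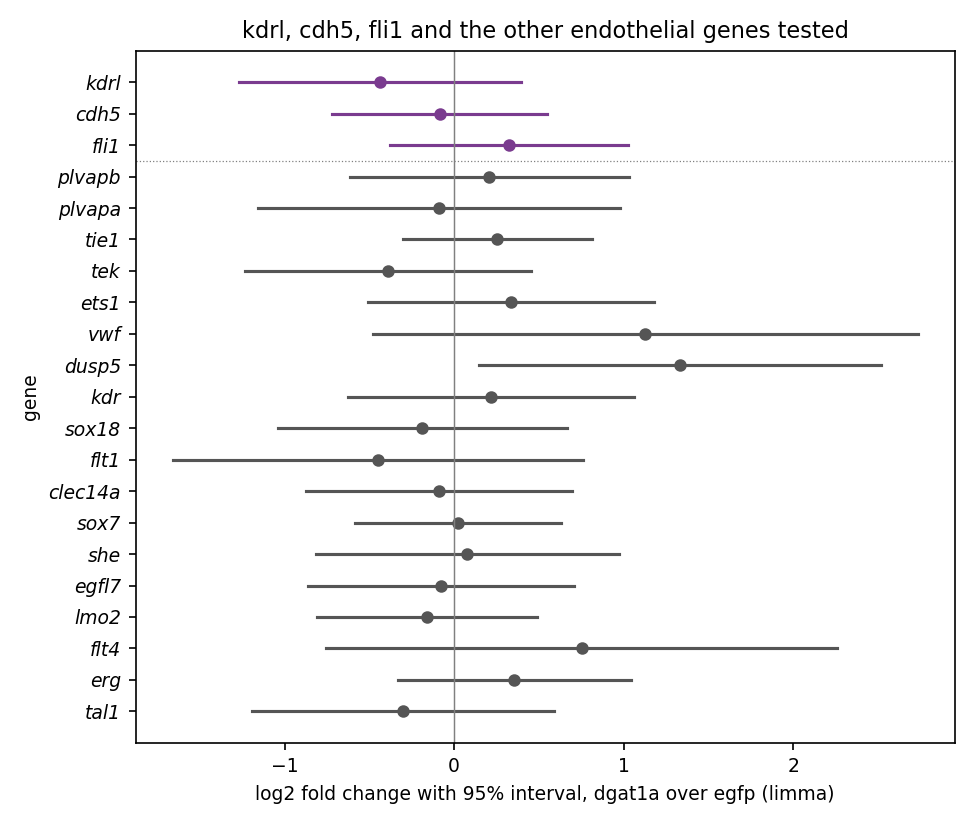
Log2 fold change of dgat1a over egfp tumours with its 95% interval from limma, for kdrl, cdh5 and fli1 (top, purple) and for the 18 other endothelial genes tested (grey, from the highest to the lowest mean level). The interval of dusp5 lies above 0 before adjustment for multiple testing, and no gene shown passed the adjusted threshold.

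Some genes were named after their values had been seen, for their kinship with the 3 genes or for their size. The VEGF receptors related to kdrl did not differ by the test. kdr lay at 5.46 to 15.8 fpm in dgat1a tumours and at 6.41 to 12.1 fpm in egfp tumours, with a log2 fold change of 0.22 (limma adjusted p = 0.802). flt1, which binds VEGF and limits its action, lay at 1.64 to 10.5 fpm in dgat1a tumours and at 5.33 to 7.01 fpm in egfp tumours, with a log2 fold change of -0.45 (limma adjusted p = 0.705). The median r of the 19 endothelial genes measured was 0.273 with kdrl, 0.174 with cdh5 and 0.486 with fli1. Without egfp replicate 1 these medians were 0.218, 0.033 and 0.485. Over all 8 tumours 14 of the 19 had a positive r with kdrl, 12 with cdh5 and 16 with fli1. The lowest r was -0.402 with kdrl, -0.704 with cdh5 and -0.753 with fli1. Of the 19 genes flt1 had the highest r with kdrl and with cdh5, 0.846 and 0.757. vwf, the von Willebrand factor of endothelium and platelets, had the highest r with fli1 over all 8 tumours, 0.908. Leaving out egfp replicate 1 gave an r of 0.769 for vwf, and egfl7 and sox18 then lay higher, at 0.864 and 0.828. The gene with an unadjusted p under 0.05 was dusp5, a MAP kinase phosphatase also induced by RAS signalling in other cells, at 5.84 to 31.9 fpm in dgat1a tumours and 3.39 to 5.597 fpm in egfp tumours (log2 fold change 1.33, limma adjusted p = 0.296). Its limma p before adjustment was 0.0835 without egfp replicate 1. The ETS genes erg and ets1 had log2 fold changes of 0.36 and 0.34 (limma adjusted p = 0.592 and 0.681). In RefSeq's annotation of the GRCz12tu assembly ets1 is the nearest gene on one side of fli1, and its r with fli1 was 0.355, and 0.622 without egfp replicate 1.

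Ligands and co-receptors of the VEGF and angiopoietin pathways formed a list of 15 genes, of which 11 were measured and 7 tested. Of these 7, 0 rose and 0 fell by limma. An unadjusted p under 0.05 was found for 2, or 28.6%, against 15.0% of all tested genes. Without egfp replicate 1 it was found for 1, or 14.3%, against 8.96% of all tested genes. The median log2 fold change of the 7 was -0.37, and -0.13 without egfp replicate 1. Both unadjusted cases of the fit on all 8 tumours were lower in dgat1a tumours. ENSDARG00000103542, which shares the symbol VEGFA with a second ID, lay at 3.28 to 12.3 fpm in dgat1a tumours and at 10.3 to 22.4 fpm in egfp tumours, with a log2 fold change of -1.43 (limma adjusted p = 0.219) and of -1.30 without egfp replicate 1. The second VEGFA ID, ENSDARG00000034700, had a log2 fold change of -0.37 (limma adjusted p = 0.864), and of -0.13 without egfp replicate 1. VEGFA is the ligand of the receptors of the kdrl family. The NRP2 ID ENSDARG00000038446, a VEGF co-receptor found on other cells too, lay at 341.3 to 501.8 fpm in dgat1a tumours and at 403.6 to 1164 fpm in egfp tumours, the highest being egfp replicate 1 (log2 fold change -0.88, limma adjusted p = 0.288). Without that tumour its log2 fold change was -0.60, and its limma p before adjustment was 0.127, against 0.0273 with all 8. angpt2b, a ligand of tek, and plxnd1, a semaphorin receptor of vessels, had log2 fold changes of -0.67 and 0.26 (limma adjusted p = 0.391 and 0.658).

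Of 4 arterial, venous and Notch genes tested, 0 rose and 0 fell by limma. An unadjusted p under 0.05 was found for 2, or 50%, against 15.0% of all tested genes. Without egfp replicate 1 it was found for 1, or 25%, against 8.96% of all tested genes. nr2f2, a regulator of venous identity that is also expressed outside vessels, lay at 10.1 to 66.2 fpm in dgat1a tumours and at 46.5 to 420.4 fpm in egfp tumours, where the highest was again egfp replicate 1. Its log2 fold change was -2.39 (limma adjusted p = 0.225) and -1.68 without that tumour. ephb4a, a receptor of veins, lay at 14.4 to 22.1 fpm in dgat1a tumours and at 22.05 to 32.3 fpm in egfp tumours (log2 fold change -0.55, limma adjusted p = 0.316), and without egfp replicate 1 its limma p before adjustment was 0.126, against 0.0411 with all 8. The arterial genes dll4 and hey2 had log2 fold changes of 0.32 and 0.31 (limma adjusted p = 0.690 and 0.863). With egfp replicate 1 left out these were 0.16 for dll4 and -0.02 for hey2, so the sign of hey2 rested on that tumour.

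Of the lymphatic and sinus endothelial genes, stab1 and stab2, 2 scavenger receptors, had means of 6.83 and 5.73 fpm over the 8 tumours. The mean of lyve1b, 0.480 fpm, was below the filter. stab1 and stab2 had log2 fold changes of 0.36 and 0.86 (limma adjusted p = 0.688 and 0.518). Without egfp replicate 1 these were 0.20 and 0.51. Of the flow and TGF-beta genes, 0 of 4 passed the limma test in either direction, with a median log2 fold change of 0.94. An unadjusted p under 0.05 was found for 1 of the 4, or 25%, against 15.0% of all tested genes. The median without egfp replicate 1 was 0.49. Then 0 of the 4 had an unadjusted p under 0.05, against 8.96% of all tested genes. klf2a, a flow-induced regulator, was at 21.5 to 150.4 fpm in dgat1a tumours and at 5.20 to 90.8 fpm in egfp tumours, lowest in replicate 1. Its log2 fold change was 1.28 with all tumours and 0.31 without egfp replicate 1. klf2b, acvrl1 and s1pr1 had log2 fold changes of 1.26, -0.49 and 0.63 (limma adjusted p = 0.256, 0.622 and 0.490). Leaving out egfp replicate 1 gave 0.89, 0.13 and 0.66, so the sign of acvrl1 rested on that tumour, which had 52.02 fpm. Among the 6 junction partners of cadherins 0 passed the test in either direction by limma. At an unadjusted p under 0.05 the count was also 0, against 15.0% of all tested genes. Those named are ctnnb1, ctnna1 and the JUP ID ENSDARG00000070787, which encode catenins, and ptprb, a phosphatase of endothelial junctions. Their log2 fold changes were -0.25, 0.21, 0.14 and -0.22, and that of ptprb was -0.78 without egfp replicate 1.

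Genes of cells that lie next to vessels or that could share these markers were set beside the 3 genes. For the 4 mural genes measured, those of pericytes and smooth muscle, the summed level was 138.1 to 473.5 fpm in dgat1a tumours and 55.7 to 325.4 fpm in egfp tumours, with the lowest in egfp replicate 1. By limma 0 of the 4 rose and 0 fell. An unadjusted p under 0.05 was found for 1 of the 4, or 25%, against 15.0% of all tested genes. Without egfp replicate 1 it was found for 0, against 8.96% of all tested genes. The median r of the mural genes was 0.846 with fli1, 0.316 with kdrl and 0.291 with cdh5. Without egfp replicate 1 it was 0.707 with fli1, 0.214 with kdrl and 0.030 with cdh5. notch3, pdgfrb, cspg4 and acta2 had r with fli1 of 0.839, 0.854, 0.925 and 0.617. cspg4, a proteoglycan of pericytes that is found on other cells too, was at 0.705 fpm in egfp replicate 1. It had the lowest p of the list, with a log2 fold change of 2.10 (limma adjusted p = 0.295) and of 0.996 without that tumour. Which cells of these tumours its RNA came from was not tested.

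Skin genes also moved with fli1, through egfp replicate 1. krt5, a keratin of the epidermis, was at 584.5 to 2473 fpm in dgat1a tumours and at 16.7 fpm in egfp replicate 1. krt4, another keratin, was at 104.7 to 581.04 fpm in dgat1a tumours and at 5.46 fpm in egfp replicate 1. epcam, an epithelial adhesion gene, was at 32.04 to 150.3 fpm in dgat1a tumours and at 0.881 fpm in egfp replicate 1. The exception was cdh1, the epithelial cadherin, at 169.8 to 422.7 fpm in dgat1a tumours and 360.9 fpm in egfp replicate 1. Summed over the 4 genes the level was 952.4 to 3309 fpm in dgat1a tumours and 383.97 to 3110 fpm in egfp tumours. The median r of the 4 skin genes with fli1 was 0.792 over 8 tumours and -0.147 without egfp replicate 1. Their median log2 fold change was 1.48 with all 8 tumours and -0.20 without egfp replicate 1, where 2 of the 4 signs turned. By limma 0 of the 4 passed the test in either direction. At an unadjusted p under 0.05 the count was also 0, against 15.0% of all tested genes. The part of skin or mural content in the level of fli1 was not tested.

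Of the 8 blood genes measured, 7 were tested and 0 rose or fell by limma. An unadjusted p under 0.05 was found for 2 of the 7, or 28.6%, against 15.0% of all tested genes. Without egfp replicate 1 it was found for 0, against 8.96% of all tested genes. The summed level of the 8 was 348.2 to 685.3 fpm in dgat1a tumours and 387.7 to 792.7 fpm in egfp tumours. Of this hbaa1, a haemoglobin gene, had 45.9 to 262.8 fpm in dgat1a tumours and 175.7 to 603.6 fpm in egfp tumours. All 8 had a negative r with kdrl and with cdh5, with medians of -0.502 and -0.352. Without egfp replicate 1, 2 of the 8 had a positive r with kdrl and 1 with cdh5. With fli1, 3 of the 8 had a positive r over all 8 tumours, and the median was -0.296. Leaving out egfp replicate 1 gave 0 of the 8 with a positive r and a median of -0.379. The leukocyte genes lcp1, coro1a and ptprc had an r with kdrl of -0.625, -0.512 and -0.559 over 8 tumours. Without egfp replicate 1 their r with kdrl was -0.817, -0.734 and -0.837. ptprc lay at 54.99 to 128.01 fpm in dgat1a tumours and at 38.01 to 51.7 fpm in egfp tumours (log2 fold change 0.79, limma adjusted p = 0.284). For the melanocyte and crest genes the summed level was 3682 to 14884 fpm in dgat1a tumours and 2807 to 3689 fpm in egfp tumours. Of this sum pmela alone had 1398 to 13275 fpm in dgat1a tumours and 1433 to 2373 fpm in egfp tumours. By limma 0 of the 5 genes passed the test. An unadjusted p under 0.05 was found for 2 of the 5, or 40%, against 15.0% of all tested genes. Without egfp replicate 1 it was found for 1, tyr, or 20%, against 8.96% of all tested genes. The muscle genes ckma and actc1b summed to 2.08 to 605.1 fpm in dgat1a tumours and to 0.849 to 9.52 fpm in egfp tumours. Of these 2, 0 passed the limma test, against 0.0534% of all tested genes. An unadjusted p under 0.05 was found for 0, against 15.0% of all tested genes. Their log2 fold changes were 3.01 and 3.63 (limma adjusted p = 0.405 and 0.358), and 3.05 and 3.33 without egfp replicate 1. DESeq2 called both, as given below, where it called 5.14% of all tested genes. The median r of the melanocyte and crest genes was -0.208 with kdrl, 0.186 with cdh5 and 0.053 with fli1. With egfp replicate 1 left out it was -0.319 with kdrl, 0.036 with cdh5 and -0.465 with fli1. pmela, tyr and crestin, the named genes of that list beside sox10, had log2 fold changes of 1.45, 0.91 and -0.82 (limma adjusted p = 0.328, 0.309 and 0.840). crestin lay at 1159 fpm in dgat1a replicate 3, at 2.33 to 25.3 fpm in the other 4 dgat1a tumours and at 23.2 to 73.7 fpm in egfp tumours. Over all 11 lists 63 genes were tested, of which limma and the edgeR quasi-likelihood test called 0, against 0.0534% of all tested genes in limma and 0.0178% in edgeR. In limma 11 of the 63, or 17.5%, had an unadjusted p under 0.05, against 15.0% of all tested genes. Without egfp replicate 1 the count was 3, or 4.76%, against 8.96% of all tested genes, and the 3 were nr2f2, tyr and the VEGFA ID ENSDARG00000103542. DESeq2 called 4 of the 63, or 6.35%, against 5.14% of all tested genes. These were nr2f2, pmela, ckma and actc1b, none of them in the endothelial list.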

How the data were processed

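Melanomas of 8 zebrafish samples were sequenced, 5 labelled dgat1a and 3 labelled egfp, with groups and replicate numbers taken from the titles. Per the submitters' processing notes, STAR 2.5.3, featureCounts 1.6.2, DESeq2 1.14.1 and the GRCz11 build were used; filters and strand setting are not given in the sources used here. The authors deposited a per-million signal (fpm), log2-like variance-stabilised values, and a comparison with a log2 fold change, a score (their quotient with the standard error), p-values and a mean signal per gene.

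Recovered reads (100% of values whole within 0.01) gave totals of 20936089 to 26865735; 3 reads equal 0.109 to 0.138 fpm, for counting error only. limma 3.58.1 in R 4.3.3 (intensity trend) was run on log2(fpm + 0.5), which understates the change of low genes, for 16853 genes, those averaging 1 fpm or more. Alternatives were edgeR 4.0.16, DESeq2 1.42.0 and those in the closing section. The tests were also run on simulated data. The changes set there were larger than those of kdrl, cdh5 and fli1, so that run does not bear on differences of their size. No 2 libraries agreed within sampling noise (smallest chi-square per degree of freedom of 28 pairs, 79.3).

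Symbols were paired with 21017 of 22416 IDs through a gene name table; 28 of 98 list genes had no unambiguous match and are not analysed here. Of each list, up to 4 genes with the highest mean were named, and per gene the 3 with the highest r. The genes and lists were chosen with earlier results of these data known. Sequences and gene coordinates are not given, since no genome of this build was used here.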

Additional observations from a re-analysis of the deposited data

How the results depend on the processing

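None of the 3 genes passed the adjusted threshold under any of 21 other settings, the adjusted p (of limma, edgeR or DESeq2) running from 0.439 to 0.895 for kdrl, 0.720 to 0.997 for cdh5 and 0.396 to 0.974 for fli1. Leaving out each tumour gave log2 fold changes of -0.75 to -0.19 for kdrl, -0.27 to 0.048 for cdh5 and -0.046 to 0.55 for fli1, the same values that enter the permutation test. For cdh5 the sign turned without dgat1a replicate 4 (0.03) and without egfp replicate 2 (0.048), and for fli1 without egfp replicate 1 (-0.046). The sign of cdh5 turned to 0.17 with dgat1a replicates 1 to 3 only, and the cause was not tested. The fit with the replicate number as a block used the same tumours, without dgat1a replicates 4 and 5. Its 0.17 is therefore the same estimate and not a second result. The deviations of same-numbered tumours from their group means had correlations of 0.240, 0.073 and 0.007. Differently numbered tumours were not compared in this way, so these values cannot decide whether the numbers mark pairs. The limma fit on all 8 tumours did not pair them. The count of 9 genes called was 4 with dgat1a replicates 1 to 3 only, and 0 with the block on those same tumours. It was 3 with edgeR and 866 with DESeq2. With a tumour left out it was 5 to 55, 5 without egfp replicate 1 and 55 without egfp replicate 2. The r of kdrl and cdh5 stayed at 0.790 to 0.964 with a tumour left out, with adjusted exact permutation p-values of 0.00655 to 0.135, and was 0.833 with a pseudocount of 0.1, where the adjusted p was 0.0503. Each value rests on 159 to 1476 reads.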
